A study of Mus musculus with 6 samples.

Results

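Interferon-stimulated effector genes are the genes whose proteins carry out the antiviral and antibacterial work of an interferon response. A list of 50 such genes was drawn up by gene symbol from known families with earlier results of these data known, leaving out the sensors, the Irf and Stat factors and the MHC genes. The list itself uses no measured value. Of the 50 genes, 46 were read by at least 1 probe set annotated to the gene alone, out of 18193 genes measured in all. Isg15 and Gbp4 had only a probe set shared with another gene, which was not used, and Oas1g and Ifi44 were not analysed here. The genes were read on 6 Affymetrix arrays of RNA from mouse embryonic fibroblasts, 1 array per clone. The knockout group was made up of 3 clones from FHL2-/- mice (E, H and J), and the wild type group of 3 clones from WT mice (E, F and I). Every line was a single clone that had become immortal spontaneously in culture. The letters name clones and do not pair them, and no interferon treatment, strain or embryo age is named in the labels for any clone.

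Interferons are secreted proteins that cells release when their sensors meet foreign nucleic acid. They bind surface receptors whose Jak kinases phosphorylate Stat proteins, which then enter the nucleus. Type I interferons act largely through a complex of Stat proteins with Irf9 that binds the interferon-stimulated response element (ISRE), and interferon gamma through Stat dimers that bind the gamma-activated site (GAS). Fibroblasts make interferon beta and respond to it, and unstimulated fibroblasts keep a low level of many effector transcripts through the same pathway.

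Promoter sequence was not used in choosing the genes. RefSeq promoters of build GRCm38.p6, each running from 250 bases before a gene's start to 50 after it, were found for 36 of the 46 measured effector genes. Letters of the ISRE core, GAAANNGAA or its reverse complement TTCNNTTTC, occurred in 19 of these 36 genes (52.8%), against 9.76% of all 27025 genes with a promoter. The stretches around the core nearest to the start are printed here for 8 effector genes that fell in the knockout clones. These 8 had the largest falls among genes with a core wholly before the start. Oasl2 (-3.67) and Oasl1 (-2.86) also fell but had no core in this window, and for Usp18 and Rtp4 no promoter was found. Each stretch runs 5′ to 3′ on the strand of the gene, and capitals mark the core on either strand, with overlapping copies merged.
Ifit3, chr19:34583402-34583460, plus strand: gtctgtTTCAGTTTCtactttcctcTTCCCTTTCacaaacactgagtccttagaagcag
Ifit1, chr19:34640780-34640838, plus strand: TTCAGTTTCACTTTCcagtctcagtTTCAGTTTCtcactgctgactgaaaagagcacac
Oas1a, chr5:120907526-120907564, minus strand: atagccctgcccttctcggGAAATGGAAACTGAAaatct
Gbp3, chr3:142559981-142560039, plus strand: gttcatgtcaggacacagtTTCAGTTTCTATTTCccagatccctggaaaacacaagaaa
Irgm1, chr11:48871421-48871469, minus strand: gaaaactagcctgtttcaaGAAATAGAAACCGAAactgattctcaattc
Igtp, chr11:58199497-58199555, plus strand: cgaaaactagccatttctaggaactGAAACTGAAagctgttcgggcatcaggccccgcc
Bst2, chr8:71537563-71537621, minus strand: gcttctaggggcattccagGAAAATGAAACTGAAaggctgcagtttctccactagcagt
Rsad2, chr12:26456538-26456596, minus strand: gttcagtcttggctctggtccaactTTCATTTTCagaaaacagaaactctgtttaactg

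The cores nearest to the start began at position -14 from it in Oas1a, -24 in Irgm1, -34 in Igtp and -38 in Gbp3. In Ifit1, Ifit3, Rsad2 and Bst2 they began at -84, -102, -119 and -124. Counted by promoter, the ISRE core was in 20 of 42 promoters of the effector genes (47.6%) and in 2812 of all 32851 promoters (8.56%). The GAS core, TTCNNNGAA, which is its own reverse complement, was in 11 of the 42 (26.2%) and in 8.3% of all promoters. Both cores occurred in 351 of all promoters and overlapped in 54. An ISRE core was in 11 of 19 matched genes that fell in the knockout clones (57.9%) and in 8 of 17 that did not fall (47.1%), a difference that was not tested. The 19 effector genes with the core had a median difference of -1.75 and the 17 without it of -1.06. A match is a run of letters in this window and not a site shown to be bound.

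Values are log2 intensities, differences are knockout minus wild type on that log2 scale each with its limma standard error (SE), and n was 3 clones a genotype. A gene is said to rise or fall where its limma p, adjusted by Benjamini-Hochberg over all 18193 genes, lay under 0.05. Precision is limited by the 6 arrays, and the median gene had an SE of 0.141. Whether each clone came from its own embryo is not stated in the labels, and the p-values thus cover spread among clones only. Array medians ran from 4.51 to 4.54 for knockout clones and from 4.44 to 4.46 for wild type. Fhl2, the targeted gene, lay at 6.01 to 6.57 in knockout clones and at 8.57 to 9.88 in wild type, a difference of -3.02 (SE 0.35, adjusted p = 0.004). With 20 assignments of 3 clones against 3, its exact two-sided permutation p was 0.1, the smallest possible. Whether that probe set lies in the deleted part was not tested, so it may not check the labels. Clone H stood apart within the knockout group. Its correlation across genes was 0.964 with clone E and 0.968 with clone J, while E and J reached 0.991. Clone H also read Xist at 9.82, against 4.69 to 5.11 in the other 5 clones. It read the Y-linked genes Eif2s3y and Kdm5d at 2.92 and 2.34, against 7.46 to 8.79 and 6.5 to 7.72 in the other 5. Clone H thus differed from all other clones in sex-linked genes. The part of that difference in the effector results was not tested. Of 11 fibroblast markers, 3 rose and 2 fell, and Col1a1 lay at 13.04 to 13.56. Lum, a small proteoglycan of the matrix, rose by 4.81 (SE 1.0, adjusted p = 0.0213), with wild type clones at 4.63 to 8.58. Dcn (2.04) and Pdgfra (1.76) also rose, and Thy1 (-1.34) and Pdgfrb (-0.64) fell. Of 5 endothelial markers 1 rose, Tek (4.27, SE 1.07, adjusted p = 0.0378). Tek read 4.68 in clone H and 8.36 and 8.91 in knockout clones E and J. Of 5 epithelial markers, Krt19 fell by 3.05 (adjusted p = 0.0031) and Epcam rose by 0.43. Of 10 leukocyte markers 0 passed in limma, with 2 at an unadjusted p under 0.05. These 2 went opposite ways, Cd14 by -0.75 (adjusted p = 0.0508) and Lyz2 by 1.14 (adjusted p = 0.127). Lyz2 read 6.03, 5.27 and 7.15 in knockout E, H and J, above every wild type clone (4.96 to 5.11). The median level of the 10 markers was 3.48 to 3.97 in knockout clones and 3.49 to 3.63 in wild type. Single markers differed in level. Ptprc, which defines leukocytes, lay at 2.57 to 2.83 over all clones, and Csf1r at 6.87 to 7.35. The part of these marker differences in the effector results was not tested.

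Effector genes were lower in the knockout clones across most families. Among the 46 measured, 25 fell, 2 rose and 19 did not pass. Over all genes tested 10.0% fell and 9.04% rose. In 43 of the 46 the difference was below 0, and the median was -1.36, beside 0.04 over all genes. In 32 the levels of the knockout clones all lay below those of the wild type clones and in 2 all lay above, while 18.2% and 20.7% of all genes were so separated. The largest falls were those of Usp18 and Ifit3, which ranked 28 and 31 among all 18193 genes ordered from the largest fall, and 11 effector genes lay within the first 154. Since each array holds RNA of a whole culture, fewer cells that express these genes and less RNA per cell cannot be told apart. Without knockout clone H, 26 effector genes fell and 2 rose, with a median of -1.19, while 13.4% of all genes fell and 12.7% rose. Without wild type clone F, the left-out clone that lowered the count most, 17 fell, beside 5.59% of all genes. The same 17 genes fell in every fit that left out 1 clone.

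**Figure D1:**
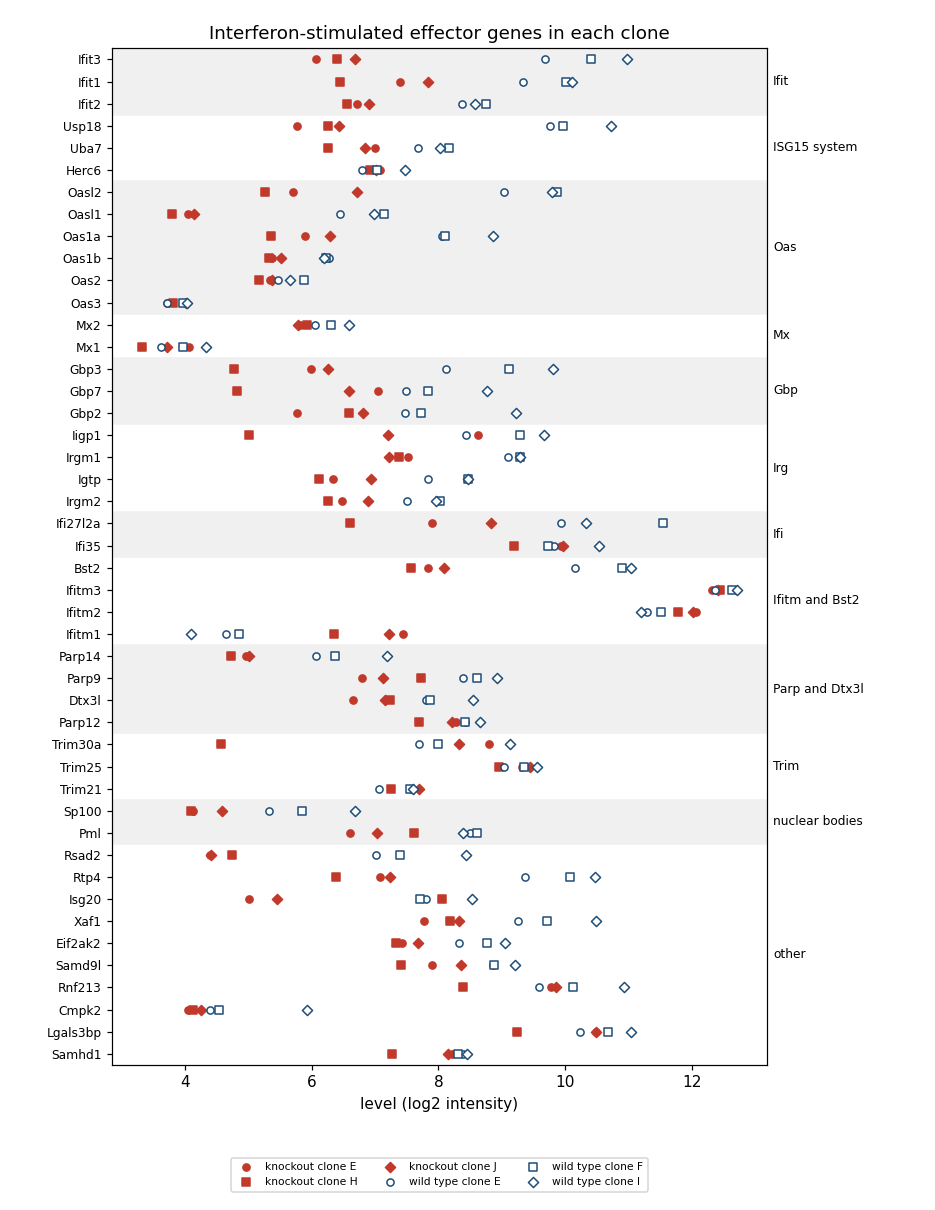
Level of each of the 46 measured effector genes (log2 intensity, horizontal axis) in the 3 knockout clones (filled red) and the 3 wild type clones (open blue), with marker shape naming the clone and shaded bands the family. In 32 genes every red point lies to the left of every blue point, and in Ifitm1 and Ifitm2 every red point lies to the right.

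**Figure D2:**
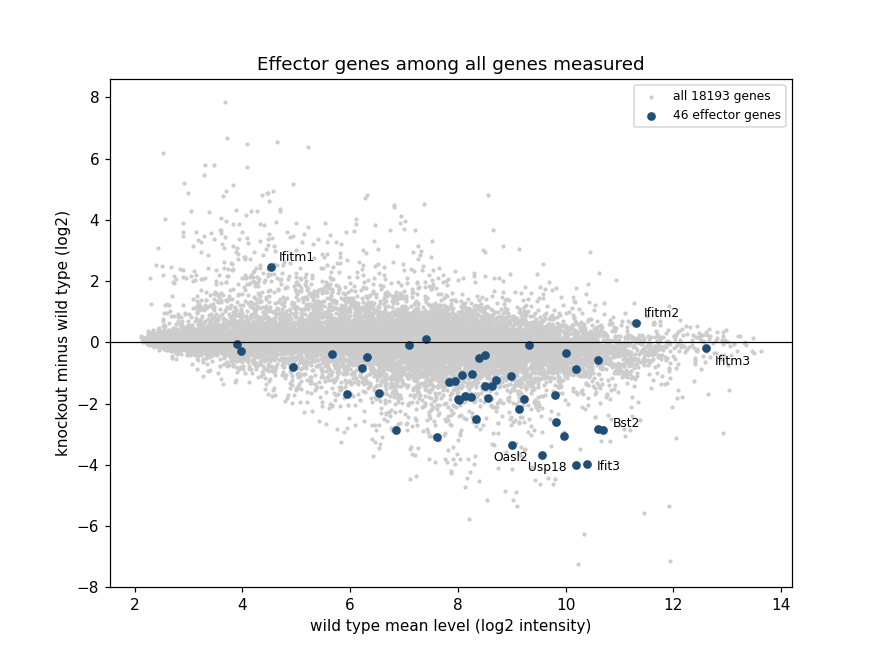
Knockout minus wild type difference (log2, vertical axis) against the wild type mean level (log2 intensity, horizontal axis) for all 18193 genes in grey and the 46 effector genes in blue. The effector genes lie mostly below 0, with Usp18 and Ifit3 near -4.0 and Ifitm1 at 2.47.

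The ISG15 system attaches the small protein ISG15 to other proteins. Usp18, which removes ISG15 and also restrains signalling at the type I receptor, had the largest fall of all effector genes. Usp18 read 5.77, 6.25 and 6.43 in knockout E, H and J and 9.76, 9.97 and 10.73 in wild type E, F and I. The groups were far apart, with means of 6.15 ± 0.341 (SD, n = 3) and 10.2 ± 0.511 (SD, n = 3). The difference was -4.0 (SE 0.29, 95% interval -4.70 to -3.30, adjusted p = 0.0013), a 16.0-fold lower level. Uba7, the activating enzyme for ISG15, fell by 1.25 (SE 0.23, adjusted p = 0.0143), with levels of 6.25 to 7.0 in knockout clones and of 7.67 to 8.16 in wild type. Leaving out wild type clone F gave it an adjusted p of 0.0538, and leaving out wild type clone I gave 0.0509. In a fit over all probe sets its other 2 sets also fell (differences of -2.03 and -0.82). Herc6, a ligase that joins ISG15 to its targets in the mouse, did not pass by its brightest probe set, at 6.92 to 7.08 in knockout clones and at 6.79 to 7.47 in wild type (-0.09, SE 0.18, adjusted p = 0.777). The other 3 probe sets of Herc6 all fell, with differences of -2.16, -1.81 and -1.10, and the mean of its 4 probe sets fell by 1.29 (adjusted p = 0.00504). The call for Herc6 therefore turned on the probe set.

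Ifit proteins bind foreign RNA and hold back its translation, and all 3 of those measured fell. Ifit3, the partner that stabilizes Ifit1, read 6.06, 6.40 and 6.69 in knockout E, H and J and 9.68, 10.41 and 10.98 in wild type E, F and I. Every knockout clone lay more than 2 log2 units below every wild type clone. The difference was -3.97 (SE 0.34, 95% interval -4.79 to -3.15, adjusted p = 0.00178), a 15.7-fold lower level. Ifit1, which recognises RNA that lacks the cap methylation of the host, read 7.39, 6.44 and 7.84 in the knockout clones and 9.34, 10.01 and 10.11 in the wild type clones. The lowest knockout value was that of clone H, and Ifit1 fell by 2.60 (SE 0.39, adjusted p = 0.00779). Ifit2 had the smallest spread of this family, at 6.72, 6.56 and 6.91 against 8.37, 8.75 and 8.57. It fell by 1.83 (SE 0.14, adjusted p = 0.00158). These 3 calls held in every fit that left out a clone. Ifit3 has a close relative in the mouse genome, and whether its probe set reads that gene too was not tested.

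Catalytic members of the Oas family make short oligoadenylates on double-stranded RNA, which switch on RNase L. Of the 6 genes of the family measured, not all of them catalytic, 4 fell. Oasl2 read 5.71, 5.26 and 6.72 in knockout E, H and J and 9.03, 9.87 and 9.79 in wild type E, F and I. It fell by 3.67 (SE 0.41, adjusted p = 0.00356), 12.7-fold on the linear scale. Oasl1, which in the mouse restrains translation of Irf7, read 4.05, 3.79 and 4.14 against 6.45, 7.14 and 6.98. The knockout values lay close together and Oasl1 fell by 2.86 (SE 0.20, adjusted p = 0.00117). Oas1a, a catalytic member, read 5.89, 5.36 and 6.29 in knockout and 8.06, 8.10 and 8.86 in wild type clones and fell by 2.49 (SE 0.31, adjusted p = 0.00451). Oas1b, known from resistance of mice to flaviviruses, moved least of the 4 that passed, as it fell by 0.83 (SE 0.10, adjusted p = 0.00423). Its wild type clones agreed closely, at 6.19 to 6.27, above 5.32 to 5.52 in the knockout clones. Oas2 and Oas3, the larger enzymes, did not pass. Oas2 lay at 5.16 to 5.38 in knockout clones and at 5.46 to 5.88 in wild type, without overlap (-0.37, SE 0.14, adjusted p = 0.116). Oas3 lay at 3.72 to 4.01 and 3.72 to 4.03 (-0.06, 95% interval -0.38 to 0.26). Its group means lay at percentiles 26.1 and 28.5 of all genes, so a small difference may not be readable there. Oas1a has several close relatives in the mouse, and whether its probe set reads them was not tested.

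Mx proteins are dynamin-like GTPases that trap viral nucleocapsids, and neither passed. Mx1 read 4.06, 3.32 and 3.72 in the knockout and 3.62, 3.97 and 4.33 in the wild type clones, so the groups overlapped (-0.27, SE 0.25, adjusted p = 0.501). Its group means lay at percentiles 23.7 and 29.6 of all genes, where a small difference may not be readable. Mx2 lay at 5.78 to 5.93 and 6.05 to 6.59, without overlap (-0.47, SE 0.15, adjusted p = 0.0802). With array weights, which give clone H less say, Mx2 had an adjusted p of 0.0448.

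Guanylate-binding proteins (Gbp) and immunity-related GTPases (Irg) attack the vacuoles in which intracellular bacteria and parasites live, and most are strongly induced by interferon gamma. All 3 Gbp genes measured had knockout levels below every wild type level, but only Gbp3 passed. Gbp3 read 5.98, 4.77 and 6.26 in knockout E, H and J and 8.12, 9.11 and 9.81 in wild type E, F and I. It fell by 3.34 (SE 0.54, adjusted p = 0.00972), 10.1-fold on the linear scale. Gbp2 read 5.76, 6.59 and 6.81 against 7.47, 7.72 and 9.23, with the widest wild type spread of the family (-1.75, SE 0.51, adjusted p = 0.0584). It passed with array weights (adjusted p = 0.0429) and when only genes at or above the median level were tested (adjusted p = 0.039). Gbp7 read 7.05, 4.82 and 6.58 against 7.49, 7.83 and 8.76, with clone H lowest (-1.87, SE 0.62, adjusted p = 0.0845). Gbp genes are close relatives, and whether their probe sets read each other's transcripts was not tested.

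Of the 4 Irg genes, Igtp, Irgm1 and Irgm2 fell. These 3 belong to the regulatory branch, which guards the cell's own membranes, and Iigp1 to the effector branch, which coats pathogen vacuoles. Irgm1 had the smallest adjusted p of all effector genes. It read 7.52, 7.37 and 7.22 in knockout and 9.10, 9.29 and 9.29 in wild type clones, and it fell by 1.86 (SE 0.12, adjusted p = 9.34e-04). Igtp read 6.34, 6.11 and 6.93 against 7.84, 8.46 and 8.46 and fell by 1.8 (SE 0.27, adjusted p = 0.00779). Irgm2 lay at 6.26 to 6.88 and 7.50 to 8.03 and fell by 1.29 (SE 0.21, adjusted p = 0.0104). The knockout spread of the 3 regulatory genes was small beside their difference. In Iigp1 it was not, since the knockout clones read 8.62, 5.01 and 7.21 and the wild type clones 8.43, 9.29 and 9.67. Knockout clone E lay among the wild type values, and Iigp1 did not pass (-2.18, SE 0.88, adjusted p = 0.141).

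Membrane-acting effectors divided in direction. Bst2, or tetherin, which ties budding virions to the cell surface, read 7.84, 7.57 and 8.09 in knockout and 10.15, 10.90 and 11.04 in wild type clones. It fell by 2.86 (SE 0.26, adjusted p = 0.00213), 7.28-fold on the linear scale. Ifitm proteins stop viral membranes from fusing with those of the endosome, and 2 of the 3 rose. Ifitm1 read 7.44, 6.35 and 7.22 in knockout E, H and J and 4.64, 4.85 and 4.10 in wild type E, F and I. All 3 knockout values lay above all 3 wild type values, and the rise was 2.47 (SE 0.33, 95% interval 1.69 to 3.26, adjusted p = 0.00565), or 5.54-fold. This call held in every fit that left out a clone. Ifitm2 was bright in all clones, at 11.78 to 12.06 against 11.19 to 11.51, and rose by 0.62 (SE 0.13, adjusted p = 0.024). Without knockout clone E or J, or wild type clone E or I, its adjusted p was 0.0766, 0.0856, 0.0857 and 0.0752. Ifitm3, the member best known for blocking influenza virus, lay at 12.32 to 12.45 and 12.37 to 12.71 (-0.18, 95% interval -0.47 to 0.11, adjusted p = 0.364).

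Among the antiviral enzymes outside these families, Rsad2 and Eif2ak2 fell. Rsad2, or viperin, makes a chain-terminating nucleotide that stops viral polymerases. It read 4.40, 4.74 and 4.41 in knockout E, H and J and 7.02, 7.40 and 8.43 in wild type E, F and I. The difference was -3.10 (SE 0.35, adjusted p = 0.00383), an 8.59-fold lower level, and its other 2 probe sets fell too (-1.81 and -2.97). Cmpk2, the kinase that supplies viperin with its substrate, did not pass by its brightest probe set, at 4.04 to 4.25 and 4.39 to 5.92 (-0.81, SE 0.39, adjusted p = 0.209). Its other probe set fell by 1.47. Eif2ak2, the kinase PKR that halts translation on double-stranded RNA, lay at 7.33 to 7.68 and 8.32 to 9.05. It fell by 1.23 (SE 0.21, adjusted p = 0.0111), and its other 2 probe sets fell too (-1.02 and -1.33). Samhd1, which breaks down the nucleotides that reverse transcription needs, lay at 7.26 to 8.21 and 8.31 to 8.45 and did not pass (-0.51, SE 0.26, adjusted p = 0.224). Its other probe sets disagreed, as 1 fell (-0.99), 1 rose (0.42) and 2 did not pass. Isg20, an exonuclease that degrades RNA, read 5.01, 8.05 and 5.45 in the knockout and 7.80, 7.71 and 8.53 in the wild type clones. Clone H alone reached the wild type range, and Isg20 did not pass (-1.84, SE 0.78, adjusted p = 0.157). Without clone H the difference was -2.78 (adjusted p = 0.0012).

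Of the 4 genes that join ADP-ribose and ubiquitin to proteins, all had knockout levels below every wild type level and 3 fell. Parp9 and Dtx3l form 1 ligase complex, and Parp14 and Parp12 transfer single ADP-ribose units. Parp14 lay at 4.72 to 5.01 in knockout clones and at 6.07 to 7.19 in wild type and fell by 1.64 (SE 0.29, adjusted p = 0.0124). A second Parp14 probe set, with a mean level of 2.97, gave 0.02 (adjusted p = 0.958 over all probe sets). The mean of both sets fell by 0.81 (adjusted p = 0.0441). Parp9 lay at 6.80 to 7.72 and 8.38 to 8.92 and fell by 1.42 (SE 0.26, adjusted p = 0.0145). Its adjusted p was 0.0559 without knockout clone J and 0.0515 without wild type clone F. Dtx3l lay at 6.65 to 7.23 and 7.80 to 8.55 and fell by 1.06 (SE 0.25, adjusted p = 0.0325). Leaving out any single clone but knockout H ended that call, with adjusted p-values of 0.0625 to 0.0857. A second Dtx3l probe set fell by 0.98. Parp12 lay at 7.70 to 8.28 and 8.42 to 8.66 (-0.43, SE 0.18, adjusted p = 0.146).

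Trim proteins are ubiquitin ligases, and none of the 3 passed: in limma 0 had an unadjusted p under 0.05. Trim25, which activates the RNA sensor RIG-I, lay at 8.96 to 9.44 in knockout clones and at 9.04 to 9.56 in wild type (-0.08, 95% interval -0.53 to 0.37). Trim21, a receptor for antibody-coated virus in the cytosol, was 1 of the 3 effector genes with a difference above 0 (0.11, 95% interval -0.35 to 0.56). Trim30a read 8.80, 4.56 and 8.32 in the knockout and 7.70, 7.99 and 9.13 in the wild type clones, so only clone H lay below the wild type range (-1.04, 95% interval -3.72 to 1.63). The intervals of Trim25 and Trim21 stayed within 1 log2 unit of 0 and that of Trim30a did not.

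Pml and Sp100 build nuclear bodies that silence incoming viral DNA, and both fell. Pml read 6.60, 7.62 and 7.03 in knockout and 8.5, 8.61 and 8.39 in wild type clones, and it fell by 1.42 (SE 0.25, adjusted p = 0.0131). Leaving out knockout clone J gave an adjusted p of 0.0514, and leaving out wild type clone E or F gave 0.0559 or 0.052. The other 2 probe sets of Pml did not pass, and the mean of its probe sets fell by 0.77. Sp100 lay at 4.09 to 4.58 and 5.32 to 6.69, and it fell by 1.69 (SE 0.35, adjusted p = 0.0211). Without knockout clone E its adjusted p was 0.0666 and without wild type clone F 0.0635. A second Sp100 probe set, the one kept when sets open to cross-hybridization were left out, gave -0.37 (adjusted p = 0.262), and the mean of both sets gave -1.03 (adjusted p = 0.0425).

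The remaining effectors had mixed calls. Rtp4, a Golgi chaperone of membrane receptors, read 7.08, 6.39 and 7.24 in knockout and 9.37, 10.08 and 10.47 in wild type clones. It fell by 3.07 (SE 0.34, adjusted p = 0.00346), 8.38-fold on the linear scale. Ifi27l2a, a small membrane protein, read 7.89, 6.61 and 8.83 against 9.93, 11.54 and 10.32. It fell by 2.82 with a wide spread (SE 0.64, adjusted p = 0.0282). The call was lost without knockout clone E or any wild type clone, with adjusted p-values of 0.062 to 0.0808. Xaf1, which counters an inhibitor of apoptosis, lay at 7.77 to 8.32 and 9.25 to 10.48 and fell by 1.72 (SE 0.32, adjusted p = 0.0157). Without knockout clone E its adjusted p was 0.0516 and without wild type clone F 0.0515. Its second probe set did not follow the first, as given with clone H further on. Samd9l, a brake on translation and growth, lay at 7.41 to 8.36 and 8.86 to 9.21 and fell by 1.10 (SE 0.25, adjusted p = 0.0285). That call was lost without knockout clone E or any wild type clone, with adjusted p-values of 0.0746 to 0.0901. Ifi35, Lgals3bp and Rnf213 did not pass, at -0.34 (SE 0.30), -0.58 (SE 0.38) and -0.88 (SE 0.49). Lgals3bp is a secreted glycoprotein and Rnf213 a very large ubiquitin ligase, and in all 3 the groups overlapped.

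**Figure D3:**
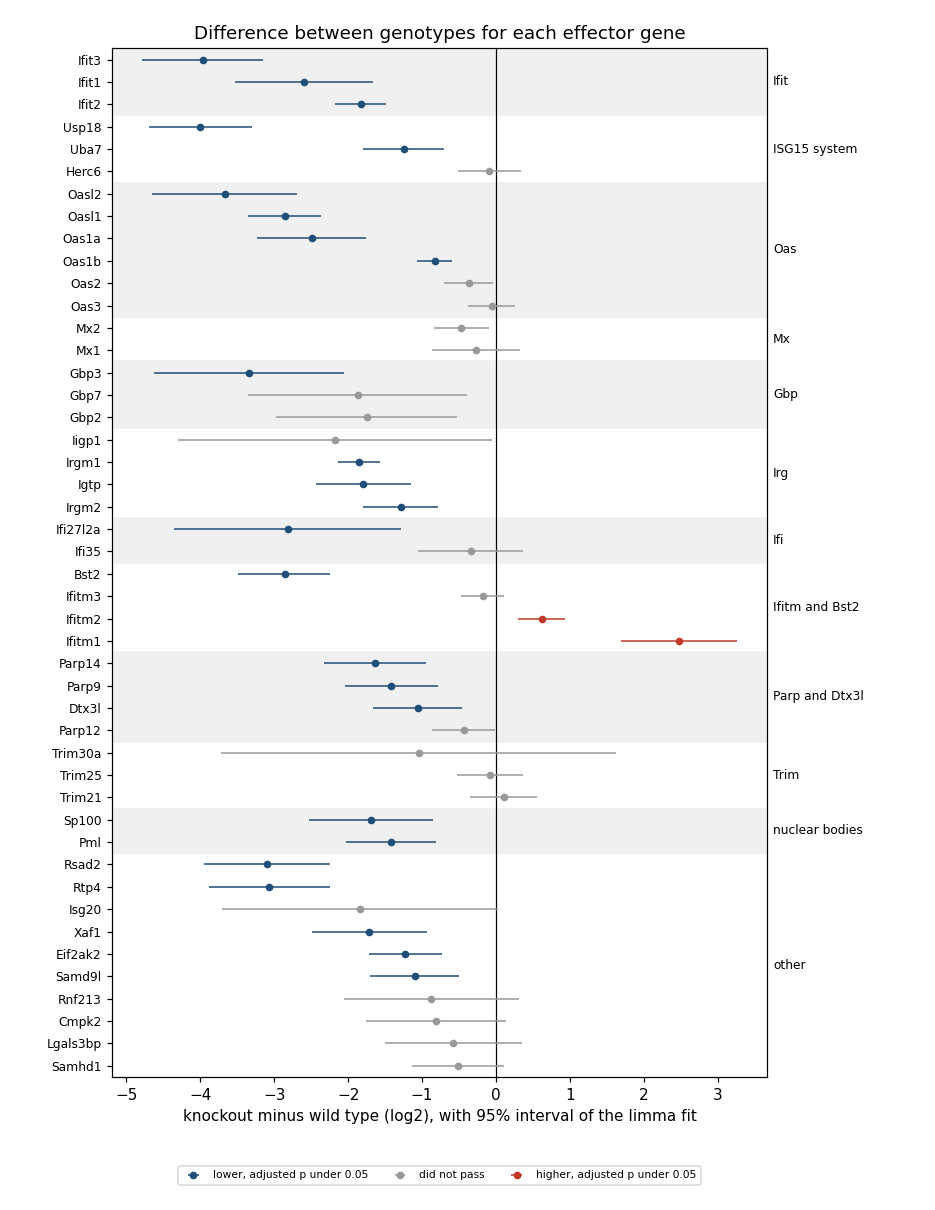
Knockout minus wild type difference (log2, horizontal axis) of each effector gene with its 95% interval from the limma fit, which is not adjusted for the number of genes, grouped by family. Blue marks the 25 genes that fell, red the 2 that rose and grey the 19 that did not pass.

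The clones of a genotype kept an order across many effector genes. Wild type clone E was the lowest of its group in 38 of 46 (82.6%), beside 34.0% of all genes, and wild type clone I the highest in 33 (71.7%), beside 29.6%. In the knockout group clone H was lowest in 32 (69.6%, beside 42.0% of all genes) and clone J highest in 27 (58.7%, beside 30.9%). Relative to the wild type mean of each gene, the median effector gene lay at -1.32, -1.58 and -1.22 in knockout E, H and J and at -0.35, 0.03 and 0.32 in wild type E, F and I. Every knockout median lay below every wild type median. The spread within a group was wider than usual, with a median SD of 0.329 in knockout and 0.396 in wild type clones, beside 0.166 and 0.149 over all genes. Wild type clone E, whose deposited values carry 9 decimals against 3 elsewhere, was therefore also the low clone of its group. Its part in the counts was not tested beyond leaving it out, when 21 effector genes fell, 1 rose and the median was -1.44. In that fit 4.86% of all genes fell and 4.27% rose.

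Knockout clone H differed from E and J in some effector genes and not in others, also within a family. It lay more than 1 log2 unit below both in 7 of 46 effector genes (15.2%, beside 2.04% of all genes) and more than 1 above both in 1 (2.17%, beside 3.06%). Clone H minus the mean of E and J was -4.0 in Trim30a, a brake on inflammatory signalling, -2.91 in Iigp1, -1.99 in Gbp7 and -1.75 in Ifi27l2a. It was -1.43, -1.35 and -1.24 in Rnf213, Gbp3 and Lgals3bp and 2.82 in Isg20. In others, such as Ifit3, Usp18, Irgm1 and Cmpk2, clone H was within 0.15 of the mean of E and J. Of these 8 genes, 4 had a second probe set. In Trim30a (7.36, 2.78 and 7.02 in knockout E, H and J), Iigp1 (6.84, 3.65 and 5.77) and Gbp7 (6.75, 5.5 and 6.37) it again read clone H lowest. The second set of Rnf213 did not, at 4.43, 4.43 and 4.46. The second probe set of Xaf1 read 8.06, 3.37 and 8.34 in these clones and 3.54 to 3.79 in wild type clones. There clone H matched the wild type clones while E and J lay far above (2.95, SE 1.25, adjusted p = 0.184 over all probe sets), the reverse of the fall in the brighter set.

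**Figure D4:**
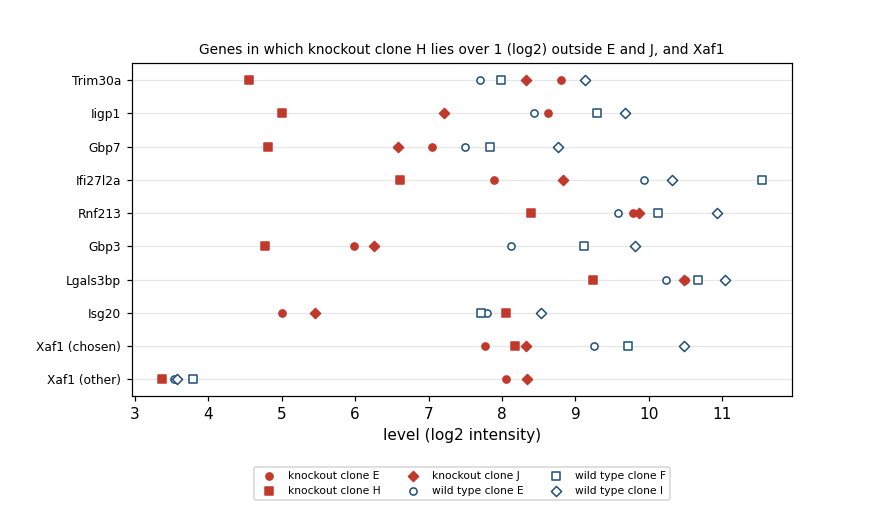
Level (log2 intensity) in each clone of the 8 effector genes in which knockout clone H lay more than 1 log2 unit outside clones E and J, and of both probe sets of Xaf1. Filled red squares mark clone H, which lies below E and J in 7 of the genes, above them in Isg20, and at the wild type level in the second Xaf1 probe set.

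Other probe sets of the same genes gave a check within the arrays. The 46 genes had 77 probe sets, of which 31 were not the brightest of their gene. Of these 31, 13 fell, 2 rose and 16 did not pass in a fit over all 45037 probe sets. The share of all probe sets called in that fit is not given here, so whether these counts are unusual was not tested. Of the 31, 0 were called in the direction opposite to a call of the brightest set. The 2 that rose belonged to Samhd1 (0.42) and Rnf213 (0.59), whose brightest sets did not pass.

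Genes that make, carry or sense the interferon signal were read beside the effectors, from a list of 36 of which 35 were measured. Of these, 8 fell, 3 rose and 24 did not pass, with a median difference of -0.08, where 10.0% of all genes fell and 9.04% rose. None of the 6 interferon genes passed: in limma 0 had an unadjusted p under 0.05. Ifnb1, the interferon of fibroblasts, read 3.85, 3.81 and 3.45 in knockout and 3.79, 4.22 and 3.93 in wild type clones, with overlap (-0.28, 95% interval -0.67 to 0.12). All 6 interferon genes lay between 2.37 and 4.46 in every clone, so a small difference in these transcripts may not be readable on these arrays. Of the receptor chains, Ifnar2 lay at 8.64 to 9.14 and 9.49 to 10.02 and fell by 0.95 (SE 0.19, adjusted p = 0.0203). Ifngr2, the signalling chain for interferon gamma, lay at 7.70 to 8.63 and 9.01 to 9.46 and fell by 1.21 (SE 0.27, adjusted p = 0.0263). The call for Ifnar2 was lost without knockout clone E or J or wild type clone F or I (adjusted p-values of 0.0647 to 0.0741), and that for Ifngr2 on leaving out any clone but knockout H (0.058 to 0.0904). With probe sets averaged, Ifnar2 did not pass (-0.57, adjusted p = 0.0964) and Ifngr2 did (-0.91, adjusted p = 0.017). Ifnar1 (-0.02, 95% interval -0.33 to 0.28) and the kinases Jak1 (-0.25, 95% interval -0.61 to 0.12) and Tyk2 (-0.12, 95% interval -0.42 to 0.18) did not pass.

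Of the transcription factors on the list, Irf7 and Irf9 fell, and Irf1 and Irf3 rose. Irf9, the subunit that contacts the ISRE, read 7.45, 7.62 and 7.53 in knockout E, H and J and 9.06, 9.03 and 9.25 in wild type E, F and I. It fell by 1.58 (SE 0.11, adjusted p = 0.00102), with a narrow spread in both groups. Irf7, which drives interferon alpha genes and is itself induced by interferon, read 5.76, 5.60 and 5.98 against 8.01, 8.60 and 8.81 and fell by 2.69 (SE 0.22, adjusted p = 0.00172). Stat2, the partner of Irf9, lay at 7.41 to 7.67 and 7.78 to 8.06 without overlap but did not pass (-0.40, SE 0.12, adjusted p = 0.0671). It passed with probe sets averaged (-0.45, adjusted p = 0.0225) and with median centring (-0.48, adjusted p = 0.0357). Irf3, the factor that first switches on Ifnb1, rose by 0.76 (SE 0.10, adjusted p = 0.00528), from 7.92 to 8.10 in wild type to 8.70 to 8.80 in knockout clones. With probe sets open to cross-hybridization left out, Irf3 gave 0.30 (adjusted p = 0.464). The other rises were those of Jak2 (0.58) and Irf1 (0.47), both named after their values were seen. In each fit without 1 clone other than knockout H, Irf3 was the only gene of the list that rose.

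Among the sensors, Ifih1, the RNA sensor MDA5, had the largest fall of the list, from 8.30, 8.91 and 8.78 in wild type E, F and I to 5.09, 5.21 and 5.66 in knockout E, H and J. The difference was -3.35 (SE 0.22, adjusted p = 9.47e-04). Ddx58, the related sensor RIG-I, lay at 8.04 to 8.49 and 8.62 to 9.29 without overlap and did not pass (-0.71, SE 0.21, adjusted p = 0.0579), but it passed without clone H (-0.85, adjusted p = 0.025). It also passed with median centring, with array weights and among genes at or above the median level (adjusted p = 0.0425, 0.0214 and 0.0419). With its probe sets averaged it did not pass (-0.42, adjusted p = 0.152). Sting1, the adaptor of DNA sensing, fell by 1.35 (SE 0.19, adjusted p = 0.00638), and Cgas, the enzyme above it, fell by 0.65 (SE 0.14, adjusted p = 0.0252). The call for Cgas was lost without knockout clone E or J or wild type clone F, with adjusted p-values of 0.068, 0.081 and 0.053. Adar, which edits double-stranded RNA of the cell and has an interferon-induced form, fell by 1.13 (SE 0.17, adjusted p = 0.0082). An ISRE core was found in 10 of the 32 list genes with a promoter (31.2%, beside 9.76% of all genes) and a GAS core in 10 of the 32 (31.2%, beside 9.55%).

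**Figure D5:**
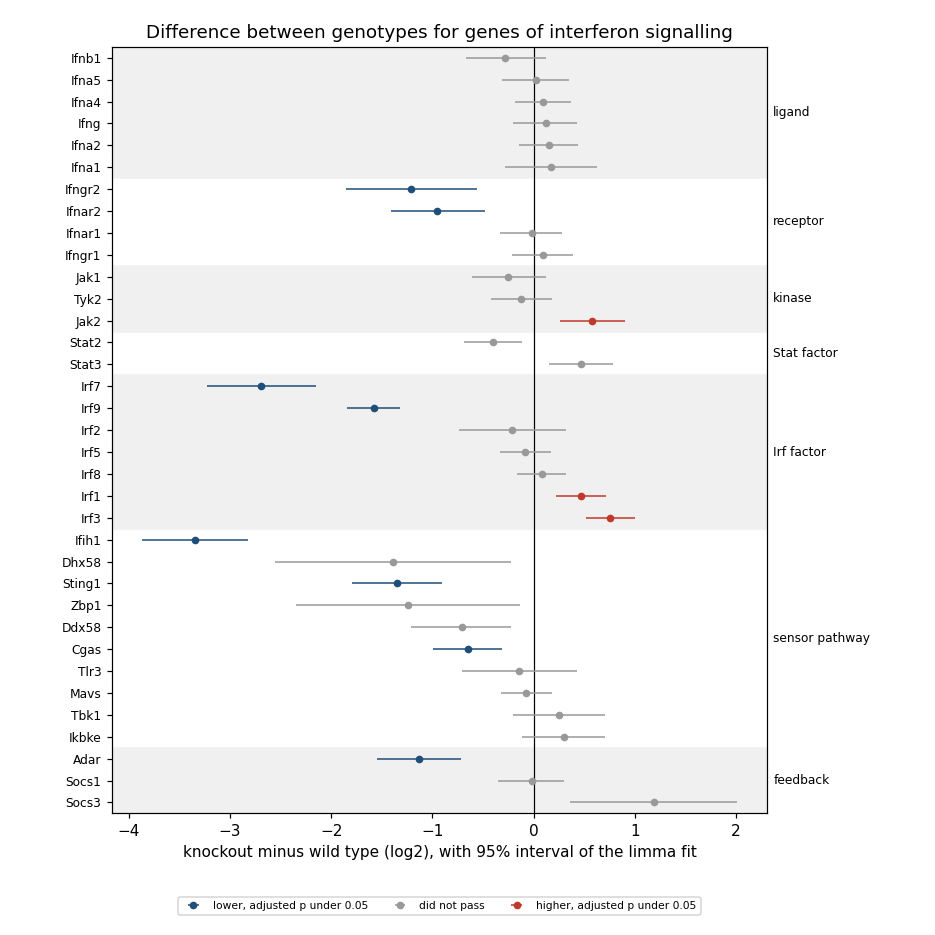
Knockout minus wild type difference (log2, horizontal axis) with the unadjusted 95% interval of the limma fit for the 35 measured genes of interferon signalling, grouped as ligands, receptors, kinases, Stat factors, Irf factors, sensors and feedback genes. Ifih1, Irf7 and Irf9 lie farthest below 0 among those that passed, and the 6 ligands lie near 0.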

How the data were processed

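RNA of 6 clones was biotin-labelled by a 3′ protocol and hybridised to 1-colour arrays of 45101 probe sets, per the labels. The deposited values are log2 intensities, and RMA is named in the submitters' processing notes (background correction, quantile normalization, probe summary). The RMA version was not given in the sources used here. Such arrays hold no reads.

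Control sets (64) and sets with several gene symbols (932) or none (9160) were left out. Each of 18193 genes was read by its probe set of highest mean over the 6 arrays. No filter on level was used. The genotype difference was fitted by limma 3.58.1 under R 4.3.3 (default prior, no other term, 4 residual degrees of freedom), with Benjamini-Hochberg adjustment over all genes at 0.05. The code was tested on simulated data. Alternatives were another prior, normalization, centring, level filter, probe rule, array weights and each clone left out. Promoter letters were searched on both strands of RefSeq sequences (GRCm38.p6), and 34741 of 34945 probe sets were matched by gene ID. Figures used matplotlib 3.10.9 in Python 3.11.15.

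The effector genes and the lists were chosen with earlier results of these data known. Named genes were every measured effector gene, Fhl2, 12 signalling genes given beforehand where analysed, and the 4 others of that list with the smallest unadjusted p.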

Additional observations from a re-analysis of the deposited data

How the results depend on the processing

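Over 13 alternatives the number of effector genes that fell (25) stayed between 17 (without wild type clone F) and 28 (array weights), and the median difference between -1.19 and -1.44. The 17 genes that fell in every fit without 1 clone, and Ifitm1, passed under every alternative that tested them. The number that rose was 1 among genes at or above the median level, where 9 effector genes were not tested, and 1 to 2 with 1 clone left out. Averaging probe sets turned Xaf1 to 0.62 (adjusted p = 0.566), since its second probe set is higher in knockout clones E and J. Of 27 signalling genes tested without probe sets open to cross-hybridization, 5 fell and 1 rose, beside 8.96% and 8.64% of all genes. Among genes at or above the median level 5 of 26 rose, beside 15.5% of all genes there. With array weights 5 of 35 rose, beside 13.2% of all genes. With 1 clone left out, 5 to 9 of the 35 fell and 1 to 4 rose. In those fits 4.86% to 13.4% of all genes fell and 4.27% to 12.7% rose. Over all genes, median centring gave 2205 falls and 1332 rises in place of 1820 and 1644. Array weights gave 2524 and 2402, and leaving out 1 clone 884 to 2446 falls and 777 to 2304 rises. The median of all genes was -0.03 with median centring and 0.04 without. No paired analysis was possible because nothing in the labels pairs the clones. The letter E occurs in both genotypes but does not pair those clones.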

Other observations

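Several effector genes lie side by side in the RefSeq order of coding genes. Neighbours mostly shared a direction, while the sizes, read by different probe sets, were often unlike. Ifitm1, which rose by 2.47, lies between Ifitm2 (0.62) and Ifitm3 (-0.18). Rsad2 (-3.10) is next to Cmpk2 (-0.81, and -1.47 by its other probe set), Ifit3 (-3.97) next to Ifit2 (-1.83), and Gbp3 (-3.34) next to Gbp7 (-1.87). Oasl2 (-3.67) and Oasl1 (-2.86) are neighbours and both fell, while the neighbours Oas2 (-0.37) and Oas3 (-0.06) did not pass. Igtp (-1.8) and Irgm2 (-1.29), and the row Parp14 (-1.64), Dtx3l (-1.06) and Parp9 (-1.42), fell together. Differences between neighbours were not tested.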
